A study of Mus musculus with 4 samples.

Results

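The 10 genes described here encode transcription factors that set whether an activated CD8+ T cell becomes a short-lived effector cell or a memory cell: Tcf7, Lef1, Eomes, Tbx21, Id2, Id3, Bcl6, Prdm1, Bach2 and Zeb2. They were taken by name from the deposited table of 24062 genes, where all 10 had a row, and all 10 were among the 11271 genes that passed the filter on low counts. RNA came from gBT-I cells, CD8+ T cells from a T cell receptor transgenic strain that recognises a glycoprotein B peptide of herpes simplex virus. Splenocytes of gBT-I mice kept specific pathogen free (SPF) were activated in culture with this peptide and LPS, received IL-1 on days 2 and 3 according to the labels, and went intravenously into recipients on day 4. The recipients were C57BL/6 mice, either SPF or germ free (GF), and gBT-I cells were sorted from spleen on day 7 after transfer. Each group has 2 libraries. All cells thus came from SPF donors and were already activated before they met the recipient, and the labels do not say whether a library holds cells of 1 mouse or of a pool.

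As background, these factors work in opposing pairs. TCF-1 (Tcf7) and LEF-1 (Lef1) keep memory and naive cells able to renew, EOMES (Eomes) supports memory, and T-bet (Tbx21) drives effector genes. ID2 (Id2) and ID3 (Id3) bind E proteins and keep them off DNA, with Id2 linked to effector and Id3 to memory precursor cells. BCL6 (Bcl6) and BLIMP-1 (Prdm1) repress each other, BACH2 (Bach2) restrains effector genes at sites that AP-1 factors also use, and ZEB2 (Zeb2) acts with T-bet in terminal effector cells.

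Total counts per library lay between 11544960 and 14431533. Counts of the libraries of a group differed by more than sampling noise, so each was treated as a sample. The labels do not say that the libraries of a group come from separate mice, so every p-value here reflects library-to-library spread, which may be technical. CD8 T cell markers summed to between 5156 and 6956 CPM (read counts scaled to a common total, here the plain library total and for single factors the TMM-scaled total) with all 8 of 8 markers detected. Markers of B cells moved with the replicate number, at 68.8 and 79.3 CPM in the libraries numbered 1 of SPF and GF and 24.95 and 27.02 CPM in those numbered 2, with 12 of 12 detected and Ms4a1, Pax5 and Faim3 at 0 in both libraries numbered 2. The CD8 T cell total had the same order, at 6956 and 6032 CPM in the libraries numbered 1 of SPF and GF and 5305 and 5156 CPM in those numbered 2. So had the plasma cell, macrophage and granulocyte totals, but not the NK, dendritic, CD4 and red cell totals. Differences between libraries also tracked exonic length. The rank correlation (Spearman's rho) over 11170 genes, which do not count as replicates, was 0.57 for the replicate difference in SPF, 0.52 for that in GF and 0.41 for GF over SPF.

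The data show a set of factors spread over more than 3 orders of magnitude in level, with small differences between SPF and GF recipients for most of them. Bcl6 was the member with the largest log2 fold change, at -1.10 (SE 0.45), followed by Zeb2 at 0.71 (SE 0.60) on few reads and Eomes at -0.60 (SE 0.28). None of the 10 passed edgeR's quasi-likelihood test with Benjamini-Hochberg adjustment over all genes, and the smallest adjusted p was 0.86. That test called 0% of all tested genes, with 0 higher and 0 lower in GF. At an unadjusted p under 0.05 it held 0 of the 10 factors and 3.22% of all genes. DESeq2 and the edgeR exact test each called 0.0799% of genes and limma-voom 0%, and all called 0 of the 10. Both GF libraries lay above both SPF libraries for 3 of the 10 (Tcf7, Prdm1 and Zeb2), beside 16.8% of all tested genes, and below them for 3 (Eomes, Id2 and Bcl6), beside 16.4% of all genes. A missed threshold with 2 libraries a group is no sign of equal levels.

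**Figure D1:**
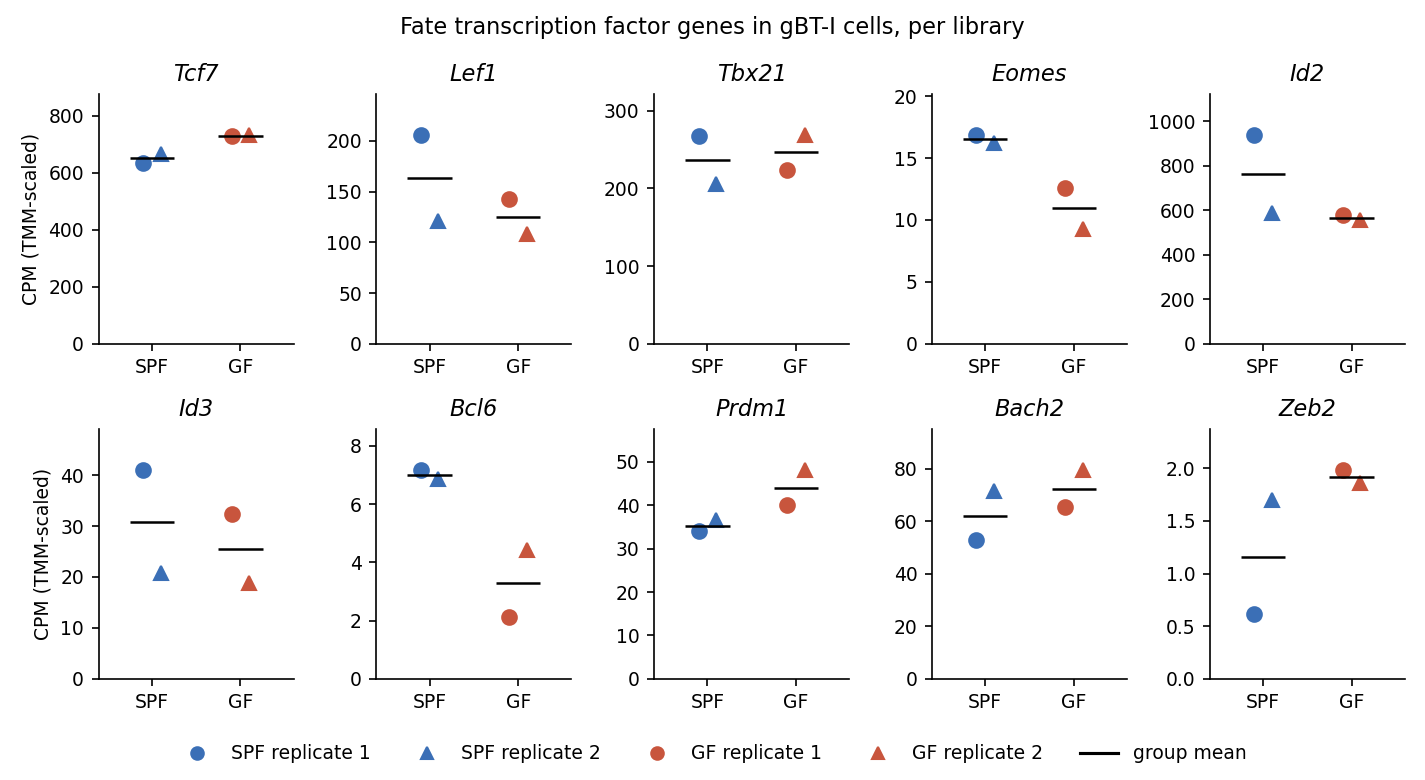
CPM on TMM-scaled library sizes (vertical axis, linear from 0) of each factor gene in SPF and GF recipients; points are libraries and bars are means of 2. Bcl6, Eomes and Id2 have both GF libraries below both SPF libraries, and Tcf7, Prdm1 and Zeb2 have both above. Lef1, Id3 and Bach2 separate by replicate number instead.

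Divided by exonic length, Id2 and Tcf7 led. Id2 had a mean of 273 CPM per kb of exon over the 4 libraries and Tcf7 had 263 CPM per kb, and the ranges of this pair overlapped. Both stood above 98% of tested genes with a known length (percentiles of 98.2 and 98.1). Tbx21 followed at 97.1 CPM per kb, clear of Tcf7 above it and of Lef1 below it. Lef1 and Id3 had means of 41.1 and 22.1 CPM per kb with overlapping ranges. Bach2 and Prdm1 could not be ordered, at 7.58 and 7.39 CPM per kb. Eomes had 3.72 CPM per kb and Bcl6 had 1.46 CPM per kb, without overlap of their ranges. Zeb2 was last at 0.134 CPM per kb, the 0.77th percentile of tested genes. The memory factor TCF-1 and the effector factors T-bet and ID2 were thus all abundant at the RNA level in the same libraries, while Zeb2 and Bcl6 were scarce. The order of the 10 was the same when the longest annotated transcript replaced the union of exons.

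**Figure D2:**
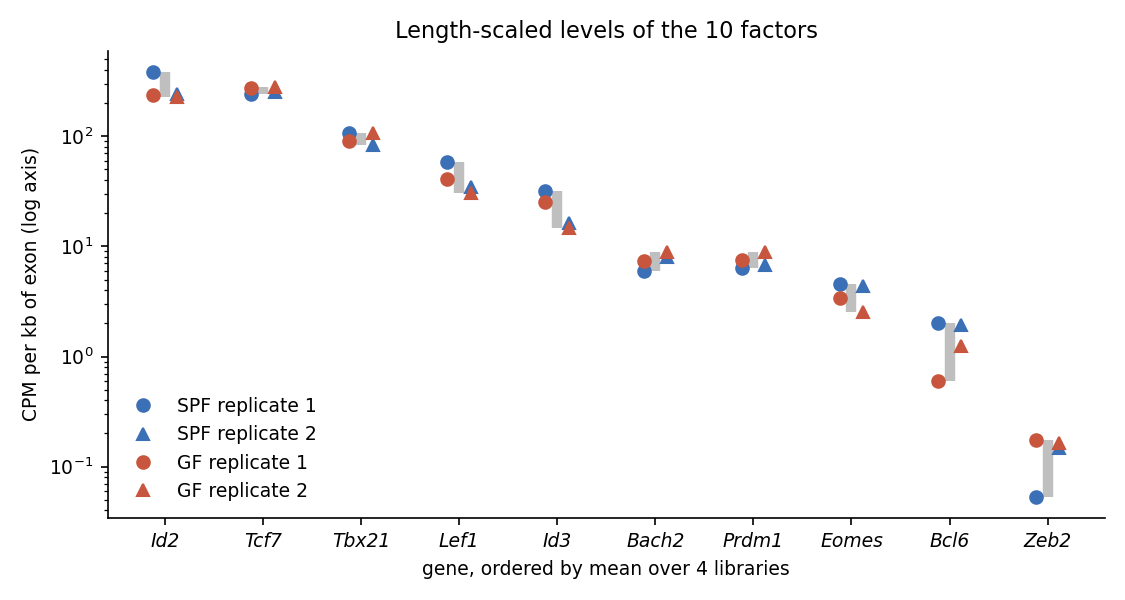
Level of each factor gene in CPM per kb of exon (vertical log axis), ordered by the mean over 4 libraries; grey bars span the lowest to the highest library. The levels run from 273 CPM per kb for Id2 to 0.134 CPM per kb for Zeb2.

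Tcf7 and Lef1 encode paralogous HMG-box factors that bind the same DNA motif and take β-catenin and TLE corepressors as partners. Tcf7 (GRCm38 chromosome 11, 52252371 to 52283014, minus strand) stood at 634 and 667 CPM (SPF replicates 1 and 2) and at 728 and 732 CPM (GF replicates 1 and 2). The GF libraries were both higher, by a narrow margin. The log2 fold change was 0.17 (SE 0.21, adjusted p = 0.87 by edgeR), and it was 0.20 between the libraries numbered 1 and 0.13 between those numbered 2. Lef1 (chromosome 3, 131110471 to 131224356, plus strand) stood at 206 and 121 CPM (SPF replicates 1 and 2) and at 142 and 108 CPM (GF replicates 1 and 2). Its groups overlapped, while both libraries numbered 1 lay above both numbered 2. The log2 fold change was -0.38 (SE 0.33, adjusted p = 0.86), and it was 0.05 without SPF replicate 1. An antisense gene, Gm43352, covers 34.5% of the exonic length of Lef1, and without strand its reads cannot be told apart from those of Lef1. The libraries thus separated by recipient for Tcf7 and by replicate number for Lef1, and the difference between these paralogues was not tested.

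Tbx21 and Eomes are T-box factors with shared targets such as Ifng and Prf1. Tbx21 (chromosome 11, 97098071 to 97115331, minus strand) stood at 268 and 206 CPM (SPF replicates 1 and 2) and at 224 and 268 CPM (GF replicates 1 and 2). The range of SPF enclosed or met every GF value within 1 CPM, so no order of the groups could be read. The log2 fold change was 0.06 (SE 0.24, adjusted p = 0.96), with -0.26 between the libraries numbered 1 and 0.38 between those numbered 2. Eomes (chromosome 9, 118478212 to 118486132, plus strand) stood at 16.8 and 16.2 CPM (SPF replicates 1 and 2) and at 12.6 and 9.30 CPM (GF replicates 1 and 2). Both GF libraries were lower, on counts of 184 and 130 reads. Eomes had a log2 fold change of -0.60 (SE 0.28, adjusted p = 0.86), with -0.42 and -0.80 within the replicate numbers. NK cells, which depend on both factors, were checked through 7 markers: their sum was 73.5 and 56.1 CPM in SPF and 49.4 and 43.1 CPM in GF. Of these markers Klra8 and Klra4 had 0 counts in every library and Ncr1 had at most 3, so the sum rested on Klrb1c and Klre1. The part of the NK markers in the Eomes values was not tested. In bulk samples, fewer cells that express a gene and less of its RNA per cell cannot be told apart.

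Id2 and Id3 encode small helix-loop-helix proteins without a DNA-binding domain. Id2 (chromosome 12, 25093799 to 25097140, minus strand) stood at 937 and 589.7 CPM (SPF replicates 1 and 2) and at 579.9 and 555 CPM (GF replicates 1 and 2). SPF replicate 1 stood above the other 3 libraries, which lay close together. Its log2 fold change was -0.43 (SE 0.29, adjusted p = 0.86) with all libraries -0.05 without SPF replicate 1 and -0.73 without SPF replicate 2. Id3 (chromosome 4, 136143497 to 136145755, plus strand) stood at 40.9 and 20.8 CPM (SPF replicates 1 and 2) and at 32.4 and 18.8 CPM (GF replicates 1 and 2). As for Lef1, both libraries numbered 1 were higher than both numbered 2, an order shared by 29.6% of all tested genes. The difference of replicate 2 minus 1 for Id3 was -0.98 in SPF and -0.78 in GF on the log2 scale, larger than the fold change between recipients of -0.27 (SE 0.44, adjusted p = 0.89). Id3 has the shortest exonic length of the 10, 1278 nt against a median of 3217 nt over tested genes. The B cell markers were higher in the same libraries, as were the CD8 T cell markers. The part of length or of B cells in the Id3 values was not tested. With the length trend removed, the fold change of Id3 was 0.04.

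Bcl6 and Prdm1 encode zinc finger repressors that shut each other off, BCL6 in memory precursors, follicular T cells and germinal centre B cells, BLIMP-1 in effector cells and plasma cells. Bases upstream of an annotated start of each gene are shown because these are the genes whose balance differed most between recipients. The sequences are from RefSeq (GRCm38.p6), 250 bases 5′ to 3′ on the minus strand that end just before the start, and no base lies in an annotated exon. Capitals mark TTCCNNGAA, the core of the BCL6 motif, CTTTGA, the core of the TCF/LEF motif, TGANTCA, the site of AP-1 and of BACH2, and CACCTG, the E-box that ZEB factors bind, each read on either strand.
Bcl6, the more downstream of the annotated starts, chr16:23981284-23981533: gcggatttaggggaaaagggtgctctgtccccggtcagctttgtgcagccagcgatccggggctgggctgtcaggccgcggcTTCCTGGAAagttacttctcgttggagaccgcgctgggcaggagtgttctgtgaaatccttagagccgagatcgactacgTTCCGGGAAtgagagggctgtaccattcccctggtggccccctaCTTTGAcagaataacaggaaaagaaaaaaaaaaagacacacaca
Prdm1, chr10:44458749-44458998: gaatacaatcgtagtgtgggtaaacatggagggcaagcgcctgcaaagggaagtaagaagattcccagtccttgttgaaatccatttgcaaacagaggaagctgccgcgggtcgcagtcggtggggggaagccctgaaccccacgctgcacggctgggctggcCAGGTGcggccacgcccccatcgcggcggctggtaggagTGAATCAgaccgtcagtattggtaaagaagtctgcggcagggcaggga
The Bcl6 window shown held 2 sites of the BCL6 core, at bases -168 and -88 from the start, and a TCF/LEF core at -44. The window of the other annotated Bcl6 start, which is not shown, held 0 sites of either core. The Prdm1 window held TGAATCA at -48 and CAGGTG, the reverse complement of CACCTG, at -87. Over 32536 distinct upstream windows of all genes, 4.06% held the BCL6 core, 13.9% the TCF/LEF core, 6.73% TGANTCA and 17.3% CACCTG. Over the 18 windows of the 10 factors, some of which overlap, the BCL6 core was in 1, the TCF/LEF core in 3 (of Bcl6, Lef1 and Bach2), TGANTCA in 2 (of Prdm1 and Zeb2) and CACCTG in 2 (of Tbx21 and Prdm1). The T-box core TCACACC and the BLIMP-1 core AAGTGAAA were in 0 of the 18, beside 3.33% and 1.36% of all windows. The general E-box CANNTG, of which CACCTG is a case and which is not capitalised, was in 9 of the 18 and in 66.2% of all windows. A match of letters does not show binding, and no binding data were analysed here.

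Bcl6 (chromosome 16, 23965052 to 23988852, minus strand) had 82 and 97 reads in SPF and 31 and 62 reads in GF, or 7.16 and 6.85 CPM against 2.12 and 4.43 CPM. Both GF libraries were lower than both SPF libraries. Exact Poisson intervals of 95%, which cover counting error only, ran from 5.55 to 8.36 CPM in SPF replicate 2 and from 3.40 to 5.69 CPM in GF replicate 2, the closest libraries across the groups. These intervals overlapped. Means were 7.0 ± 0.2 CPM for SPF and 3.28 ± 1.64 CPM for GF (SD, n = 2 each). The fold change corresponds to 0.468 times the SPF level, with an edgeR adjusted p of 0.86 and an unadjusted p of 0.058. The log2 difference was -1.74 between the libraries numbered 1, -0.62 between those numbered 2, and -0.66 and -1.73 in the fits without GF replicate 1 and without GF replicate 2. Germinal centre B cells also express Bcl6, and the B cell list summed to 68.8 and 24.95 CPM in SPF and 79.3 and 27.02 CPM in GF. Its most abundant markers were Cd79b, at 44.9 and 23.4 CPM in SPF and 42.5 and 25.6 CPM in GF, and Cd79a, at 7.02 and 0.642 CPM in SPF and 10.1 and 0.554 CPM in GF. The part of B cells in the Bcl6 values was not tested. Prdm1 (chromosome 10, 44437177 to 44528501, minus strand) stood at 34.0 and 36.6 CPM (SPF replicates 1 and 2) and at 40.0 and 48.1 CPM (GF replicates 1 and 2). Both GF libraries were above both SPF libraries, with a log2 fold change of 0.32 (SE 0.22, adjusted p = 0.86). It was 0.18 without GF replicate 2 and 0.16 with the length trend removed. The plasma cell marker Sdc1 had at most 3 reads in any library and Tnfrsf17 had 0. The plasma cell list, with 5 of 6 markers detected, summed to 254 and 195 CPM in SPF and 260.4 and 198 CPM in GF, nearly all of it Txndc5.

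Bach2 and Zeb2 stand at the ends of the same axis, BACH2 as a brake on effector genes and ZEB2 as a factor of terminal effector cells. Bach2 (chromosome 4, 32238804 to 32586108, plus strand) stood at 52.8 and 71.7 CPM (SPF replicates 1 and 2) and at 65.4 and 79.5 CPM (GF replicates 1 and 2). The groups overlapped, and both libraries numbered 2 were above both numbered 1, an order shared by 28.4% of all tested genes. The log2 fold change was 0.22 (SE 0.25, adjusted p = 0.86) and turned to -0.06 with the length trend removed. It was 0.02 without SPF replicate 1, 0.45 without SPF replicate 2, 0.35 without GF replicate 1 and 0.07 without GF replicate 2. Bach2 is the second longest of the 10, with 8886 nt of exon. Zeb2 (chromosome 2, 44983632 to 45117395, minus strand) had 7 and 24 reads in SPF and 29 and 26 reads in GF, or 0.611 and 1.69 CPM against 1.98 and 1.86 CPM. SPF replicate 1 was low and the other 3 libraries lay close together. Its Poisson interval, from 0.246 to 1.26 CPM, overlapped those of SPF replicate 2 (from 1.09 CPM) and GF replicate 2 (from 1.22 CPM) and lay below that of GF replicate 1 (from 1.33 CPM). For Zeb2 the log2 fold change was 0.71 (SE 0.60, adjusted p = 0.86), 0.18 without SPF replicate 1 and 1.63 without SPF replicate 2. Antisense genes overlap both: Bach2os, with 0 to 9 reads, covers 6.04% of the exonic length of Bach2, and Zeb2os, with 0 to 2 reads, covers 3.14% of that of Zeb2. Macrophages also express Zeb2. The macrophage and monocyte list, with 9 of 9 markers detected, summed to 1348 and 883 CPM in SPF and 1052 and 668 CPM in GF, most of it Ly6c2 and Itgam, which activated CD8 T cells also express. Among the others, Lyz2 had 48 and 8 reads in SPF and 65 and 0 in GF, Cd68 had 40 and 91 against 60 and 151, and the other 5 markers had at most 10 reads in any library. The part of such cells in the Zeb2 values was not tested.

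**Figure D3:**
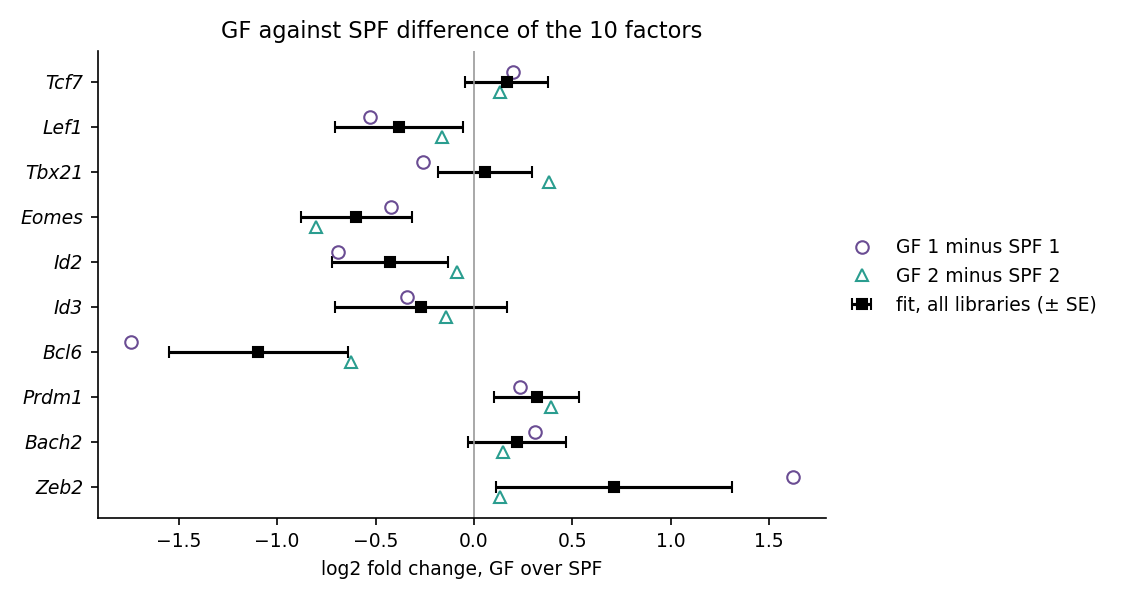
Log2 fold change of GF over SPF for each factor gene (horizontal axis); squares are the edgeR fit of all 4 libraries with its SE, and open symbols are the differences within each replicate number. Bcl6, Eomes, Lef1, Id2 and Id3 lie below 0 in both replicate numbers. Tcf7, Prdm1, Bach2 and Zeb2 lie above 0 in both, and Tbx21 lies on opposite sides of 0.

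The opposing pairs were then read as ratios within a library, which do not depend on library size or scaling. Counts were divided by exonic length, and intervals are exact binomial (Clopper-Pearson) intervals of 95% that cover counting error only. With 2 libraries on each side the smallest two-sided p of the exact permutation test is 0.33, so no pair could pass a threshold of 0.05.

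The Bcl6 to Prdm1 ratio was the pair of the 4 whose groups did not overlap. It was 0.32 (0.249 to 0.407) and 0.285 (0.227 to 0.355) in SPF replicates 1 and 2, against 0.0806 (0.0542 to 0.116) and 0.141 (0.107 to 0.182) in GF replicates 1 and 2. BLIMP-1 transcripts thus exceeded those of BCL6 per length by 3.12 and 3.51 times in SPF and by 12.4 and 7.12 times in GF. No SPF interval overlapped a GF interval. The mean log2 difference of GF minus SPF was -1.51 (SE 0.41), with an exact permutation p of 0.33, or 0.89 after Benjamini-Hochberg adjustment over the 4 pairs. As the groups did not overlap, the sign of the difference within both replicate numbers (-1.99 and -1.02) was fixed. Leaving out each library in turn, where the sign was fixed too, gave -1.91 to -1.10. The ratio rests on the same Bcl6 and Prdm1 reads as the values above. With Bcl6 lower and Prdm1 higher in both GF libraries, its groups had to separate, so the separation adds no support.

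The Tcf7 to Tbx21 ratio was 2.24 (2.15 to 2.34) and 3.07 (2.94 to 3.20) in SPF and 3.08 (2.96 to 3.20) and 2.59 (2.49 to 2.68) in GF. TCF-1 transcripts exceeded those of T-bet in every library, and the groups overlapped. The replicates of a group differed by more than counting error, and the log2 difference of GF minus SPF was 0.11 (SE 0.26, exact permutation p = 0.67), with 0.46 and -0.25 within the replicate numbers. It was -0.12 without SPF replicate 1 and -0.02 without GF replicate 1.

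The Id3 to Id2 ratio was 0.0834 and 0.0672 in SPF and 0.106 and 0.0647 in GF, so Id2 exceeded Id3 per length by between 9.39 and 15.5 times. The libraries numbered 1 had the higher ratio in each group. The log2 difference was 0.15 (SE 0.39, exact permutation p = 1). It was 0.35 and -0.05 within the replicate numbers, -0.21 without GF replicate 1 and -0.01 without SPF replicate 2.

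The Bach2 to Zeb2 ratio was 111 (53.7 to 278) and 54.5 (36.4 to 85.4) in SPF and 42.5 (29.4 to 63.9) and 55.03 (37.4 to 84.6) in GF. The few Zeb2 reads made the intervals wide, and those of all 4 libraries overlapped. The log2 difference was -0.69 (SE 0.55, exact permutation p = 0.67), with -1.39 and 0.01 within the replicate numbers. SPF replicate 1, with its 7 Zeb2 reads, carried most of the difference, and without that library it was -0.17.

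**Figure D4:**
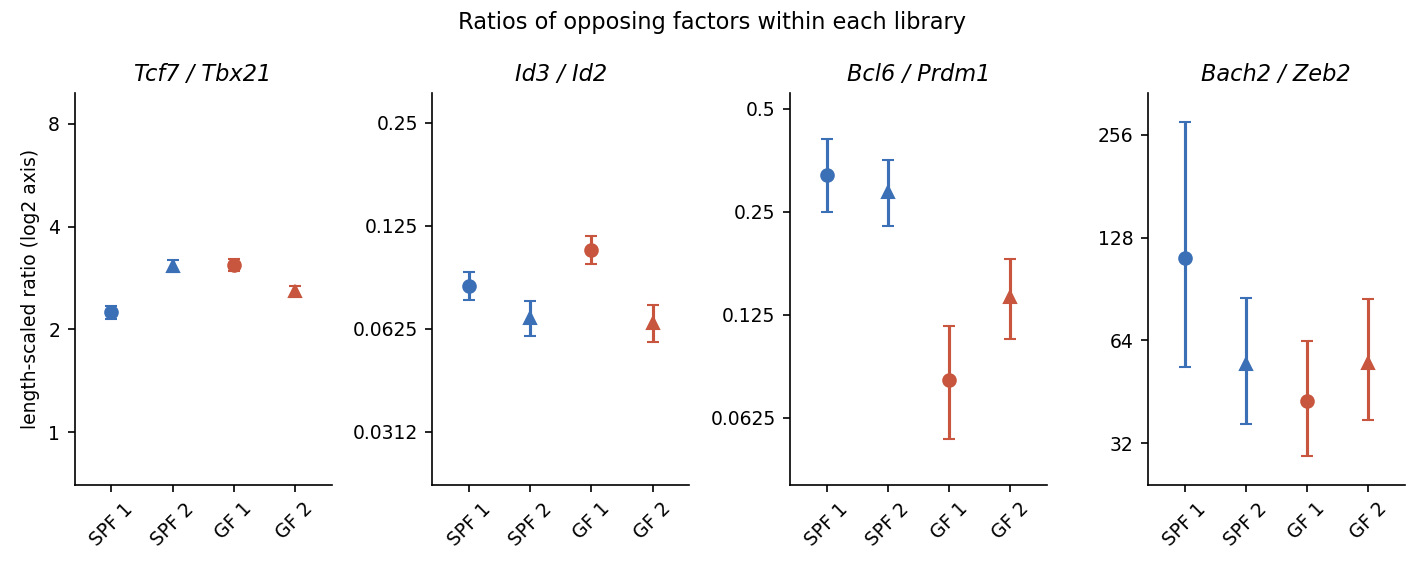
Length-scaled ratio of each opposing pair in each library (vertical log2 axis, the same span of doublings in every panel); bars are exact 95% intervals for counting error. The Bcl6 to Prdm1 ratio is 0.285 or more in SPF and 0.141 or less in GF, while the other pairs overlap between recipients.

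Partners, targets and further factors of the same network were examined as 10 lists, beside 5597 genes higher and 5674 lower in GF among all tested genes and a median log2 fold change of -0.00. No listed gene passed the edgeR test. The medians moved with single libraries, so each is given with its range when 1 library was left out in turn. The partners of TCF-1 and LEF-1 were higher for 3 and lower for 5 of 8 tested genes (median -0.09, range -0.22 to 0.15, positive without SPF replicate 1). Tle3, a corepressor, had a mean of 237 ± 17 CPM for SPF and 320.3 ± 45.1 CPM for GF (SD, n = 2 each), its relative Tle1 measured 21.5 ± 1.9 against 14.9 ± 3.7 CPM, and the β-catenin cofactor Bcl9 3.51 ± 0.52 against 5.85 ± 0.89 CPM. Of 9 targets, 3 were higher and 6 lower (median -0.18, range -0.23 to 0.25, positive without SPF replicate 1). Among them the lymph node homing receptor gene Ccr7 had a log2 fold change of -0.67 (SE 0.34), the Wnt feedback gene Axin2 0.45 (SE 0.29) and Foxo1, a factor of quiescence, 0.43 (SE 0.21). The 2 lists held members on both sides, as Tcf7 and Lef1 did.

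Of 12 targets of T-bet and EOMES, 4 were higher and 8 lower (median -0.26). The median ran from -0.54 without SPF replicate 2 to -0.000937 without SPF replicate 1, and it was 0.07 with the length trend removed. The list held 3 genes at an unadjusted p under 0.05, of 3.22% among all genes. S1pr5, a receptor for exit from tissue, had 13 and 13 reads in SPF and 4 and 3 reads in GF. Cx3cr1, a receptor of effector cells, stood at 4.36 and 6.50 CPM (SPF replicates 1 and 2) and at 8.94 and 15.7 CPM (GF replicates 1 and 2). Fasl, the death ligand gene, measured 59.3 and 49.9 CPM against 34.3 and 39.8 CPM. Prf1 (perforin) had a log2 fold change of -0.53 (SE 0.24), with both GF libraries below both SPF libraries, an order held by 16.4% of tested genes. Ifng (interferon-γ) had 0.46 (SE 0.61). Its groups overlapped and both libraries numbered 2 lay above both numbered 1, so its side of 0 could not be read. All of these targets had an edgeR adjusted p of 0.86 or more.

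E proteins, the targets of ID2 and ID3, were measured by Tcf3 (E2A) and Tcf12 (HEB), both higher in GF with log2 fold changes of 0.34 (SE 0.20) and 0.19 (SE 0.23). Their median was 0.26, from 0.14 without SPF replicate 1 to 0.40 without SPF replicate 2, and 0.15 with the length trend removed. Tcf3 had both GF libraries (185 and 182 CPM) above both SPF libraries (136 and 154 CPM), an order held by 16.8% of tested genes. For Tcf12 the groups overlapped. Id1, Lyl1 and Tal1 of the same list were too low to test. Of 6 BCL6 corepressors, 4 were higher and 2 lower, and the median was 0.21, from -0.0096 without GF replicate 2 to 0.39 without GF replicate 1, 0.01 without SPF replicate 1 and 0.09 with the length trend removed. Ncor1 had 0.41 (SE 0.49) and Mta3 0.17 (SE 0.20). Of 8 BLIMP-1 partners and targets, 3 were higher and 5 lower (median -0.06, from -0.34 without SPF replicate 2 to 0.04 without SPF replicate 1). Ehmt2, the G9a histone methyltransferase that BLIMP-1 recruits, had 0.46 (SE 0.26), the deacetylase gene Hdac2 -0.40 (SE 0.23), and Cxcr5, a receptor of follicular cells, -0.73 (SE 0.62) with its highest level in SPF replicate 1 at 16.1 CPM.

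Of 10 genes around BACH2, 7 were higher and 3 lower, with a median of 0.32. The median ran from 0.10 without SPF replicate 1 to 0.39 without SPF replicate 2. It was 0.13 without GF replicate 2 and 0.18 with the length trend removed. Akt1, a kinase that inactivates BACH2, had a mean of 179 ± 2 CPM for SPF and 240.4 ± 19.9 CPM for GF. The AP-1 genes Fosl2 and Batf went apart, with 0.42 (SE 0.25) and -0.43 (SE 0.24). Of 6 partners and relatives of ZEB2, 3 were higher and 3 lower (median -0.03, range -0.03 to 0.04, positive without SPF replicate 1). The ZEB2 paralogue Zeb1 had 0.01. The chromatin remodeller gene Chd4 had 0.57 (SE 0.41), the histone chaperone gene Rbbp4 -0.50 (SE 0.31) and Smad3 0.30 (SE 0.33), and in all 3 the groups overlapped.

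Of 14 other effector fate factors, 10 were higher and 4 lower (median 0.15, from -0.05 without GF replicate 2 to 0.39 without GF replicate 1, and 0.08 with the length trend removed). Irf4, which scales with T cell receptor signal, measured 24.3 ± 2.5 against 35.6 ± 5.2 CPM, Rbpj of the Notch pathway 208 ± 26 against 291 ± 15 CPM, and the orphan receptor gene Rora 18.7 ± 2.7 against 30.9 ± 10.7 CPM. In each of these 3, taken for the smallest p of the list, both GF libraries were above both SPF libraries. Of the 14, 3 had this order and 2 the reverse, beside 16.8% and 16.4% of all tested genes. Of 14 other memory and quiescence factors, 8 were higher and 6 lower (median 0.05, from -0.07 without GF replicate 2 to 0.23 without GF replicate 1), and -0.17 with the length trend removed. Ikzf1 (Ikaros) had 0.29 (SE 0.23) and Tox, a factor of exhausted cells, -0.39 (SE 0.33). Foxo1, Myb, Cxcr5, Batf and Zeb1 each stand in a pair of lists.

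**Figure D5:**
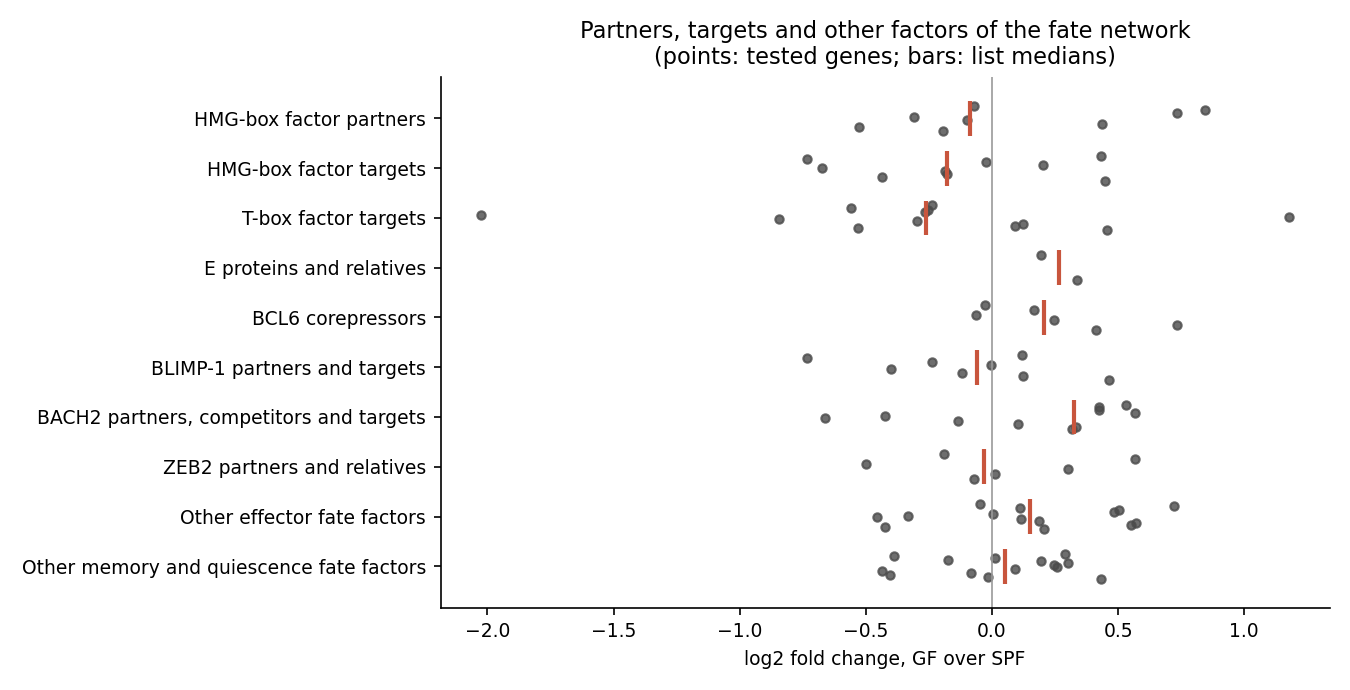
Log2 fold change of GF over SPF (horizontal axis) of each tested gene in 10 lists of partners, targets and further factors; orange bars are list medians. The medians lie between -0.26 and 0.32, and each list but the E proteins has genes on both sides of 0.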

How the data were processed

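The authors deposited whole-number read counts per gene symbol, not normalized, in 1 column per library. The submitters' processing notes name mm10 as build, and as tools featureCounts, Subread, TopHat, CASAVA, Picard and edgeR, with no role. No source used here gives their versions or the annotation. Per the labels' protocols, libraries were made with the TruSeq RNA kit, so strand is not marked.

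GF was compared with SPF over 11271 genes kept by filterByExpr, with TMM scaling and the quasi-likelihood test of edgeR 4.0.16 in R 4.3.3, without covariates, at a Benjamini-Hochberg threshold of 0.05; the step was tested on simulated data. SE was obtained by dividing the log2 fold change by √F. CPM of single genes uses TMM-scaled library sizes, and marker totals the plain library total. Lengths and positions are from GENCODE M21 (GRCm38) basic, with a length for 99.1% of tested genes. A count of 0 allows up to 3 counts, or 0.21 to 0.26 CPM. DESeq2 1.42.0, limma-voom (limma 3.58.1), other scalings and filters, a replicate block, a length correction (a lowess trend of log2 CPM on length in each library) and each library left out were the alternatives. Figures used matplotlib 3.10.9.

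The factors and lists were chosen with earlier results of these data known. All 10 factors are named, and of each list the 3 genes with the smallest p, except for a gene not reported here; other list genes and markers in the text were chosen after their values were seen. CD4, dendritic, granulocyte and red cell markers were also totalled: CD4 and regulatory T cell markers summed to 69.0 to 109 CPM (5 of 5 detected, Cd4 at most 6 reads), dendritic cell markers to 533 to 1038 CPM (8 of 8, nearly all Itgax and Bst2), granulocyte markers to at most 0.78 CPM (3 of 5) and red cell markers to at most 1.65 CPM (3 of 7).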

Additional observations from a re-analysis of the deposited data

How the results depend on the processing

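The counts of called genes depended on the setting. DESeq2 and the edgeR exact test each called 8 genes higher and 1 lower in GF. Leaving out 1 library gave 0 to 783 higher and 0 to 544 lower, with the most when SPF replicate 2 was dropped, 15 and 2 when SPF replicate 1 was, and 0 and 0 for either GF library; none of the 10 factors was called in these fits. A lone library was there assumed to vary like the other group. With the replicate number as a block, 786 genes were called higher and 420 lower (10.7%), and 208 and 80 with the length correction added. The block called 1 factor, Bcl6 (log2 fold change -1.15, adjusted p = 0.033, against a range of 0.033 to 1.00 over the 15 alternatives); with the length correction added its adjusted p was 0.076. Replicate differences of SPF and GF correlated across genes (r = 0.70), but no label says what a number marks, so the numbers were not taken as pairs.

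The direction was kept in all 15 alternatives for 6 of the 10 factors: Tcf7, Eomes, Id2, Bcl6, Prdm1 and Zeb2. These are the 6 whose groups did not overlap, so leaving out a library could hardly turn their sign. The other alternatives use the same counts. The kept direction therefore adds no support. With the length correction, Id3 turned to 0.0384 without and 0.035 with the block and Bach2 to -0.0612 and -0.0609. Leaving out a library gave -0.72 to 0.0506 for Lef1, -0.13 to 0.26 for Tbx21 and -0.72 to 0.30 for Id3. It gave -0.12 to 0.33 for the Tcf7 to Tbx21 ratio and -0.21 to 0.51 for the Id3 to Id2 ratio. The cause was not tested. The other ratios kept their direction. Of 150 alternative list medians 16 moved by more than the spread between replicates, 10 of them with a library left out.

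Depth limits Zeb2 and Bcl6 most, with 7 to 29 and 31 to 97 reads, and 2 libraries a group limit every test.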
